A study of Nothobranchius furzeri with 20 samples.

Results

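Of 26739 genes listed for the skin of the turquoise killifish Nothobranchius furzeri, 17060 reached a set abundance, and 28 of those had less RNA in every library from 27-week-old males than in any library from 9-week-old males. They were chosen on these values. Counts were divided by the library total and multiplied by 1000000 (CPM), and put on the scale log2(CPM + 1). Genes with a mean of at least 1 CPM over all 20 libraries were kept, and a gene was taken when its highest value at 27 weeks lay under its lowest value at 9 weeks. The rule allowed up to 200 genes, and all 28 that met it are described. They make up 0.164% of the genes kept, while 134 genes, 0.785%, were higher in every 27-week library. Ranks 1 to 28 run from the largest to the smallest difference between the mean of the 9-week libraries and that of the 27-week libraries on this scale. The age difference itself is therefore a description, with no test.

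The groups were fish aged 27 weeks given rotenone at 1% of its LC50, and fish aged 9 weeks given 0.1%, 1% or 10% of it, with 5 libraries in each. All fish were males of the strain MZM-04/10p, and every group had received rotenone; no group without it was analysed here, and how long the exposure lasted is not given in the sources used here. Of the young groups, the one at 1% shares its dose with the 27-week group, and the other 2 differ from it in both age and dose. The labels do not say that each library is a separate fish, so the p-values below measure the spread between these libraries.

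Rotenone comes from plants and blocks complex I, the enzyme through which NADH feeds electrons into mitochondrial respiration. The LC50 is the concentration lethal to 50% of animals in a toxicity assay, and fractions of it are used as sublethal doses. The turquoise killifish grows and ages within months, and fish skin, a stratified living epidermis with mucous cells over a dermis that carries scales and pigment cells, is renewed throughout life. The genes are listed by identifier alone, and none could be paired with a name, so no role can be given for any of the 28, and the labelled tissue could not be checked against its markers. In bulk RNA from a piece of tissue, fewer cells of a type and less RNA per cell cannot be told apart.

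Library totals lay between 23423536 and 27739914 reads at 27 weeks and between 21770720 and 29017737 at 9 weeks. On the first principal component of all genes kept (29.6% of the variance), replicates 1 and 4 at 0.1% stood apart at 115 and 98.0, and the next library, replicate 3 at 10%, lay at 14.4. Of the 17060 genes kept, 467 were at least 8-fold higher in both of these libraries than in each of the other 3 at 0.1%. None of the list (0 of 28) was among them, which says little, since so few of all genes were. The 10 most abundant genes of a library took 13.3% to 14.4% of its reads at 27 weeks, 13.0% to 25.3% at 0.1%, 12.2% to 23.8% at 1% and 19.6% to 23.1% at 10%. A larger share for these genes lowers the CPM of all others.

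The 28 genes summed to 1070, 1251, 1679, 1559 and 1118 CPM in the libraries of 27 weeks. Their sums were 3054, 3983, 4391, 2189 and 3736 CPM at 9 weeks and 0.1%, 3688, 4205, 2230, 2101 and 3536 CPM at 9 weeks and 1%, and 2668, 3383, 3740, 3771 and 3226 CPM at 9 weeks and 10%. The highest sum at 27 weeks was under the lowest at 9 weeks, an order that the rule fixes for any sum of these genes. The lowest young sums came from replicates 3 and 4 at 1% and replicate 4 at 0.1%. The means were 1335 ± 271 CPM at 27 weeks, and 3470 ± 865, 3152 ± 935 and 3358 ± 450 CPM at 9 weeks with 0.1%, 1% and 10% (SD, n = 5 each).

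**Figure D1:**
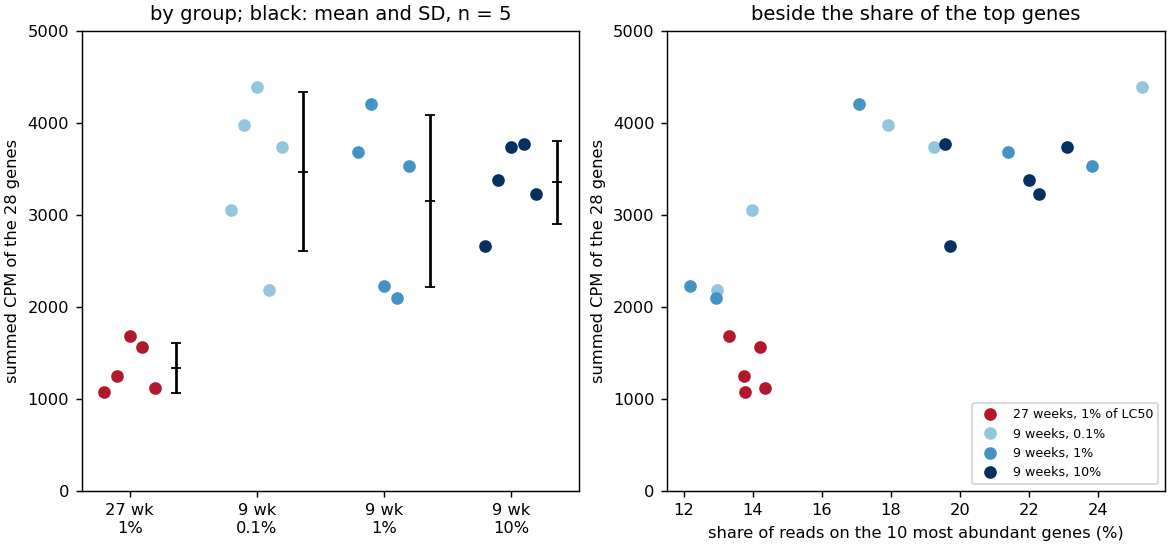
Summed level of the 28 genes in each library, in CPM, by group; each point is 1 library and the bar is the mean with its SD. The 27-week libraries sit between 1070 and 1679 CPM, and the lowest 9-week library is at 2101 CPM.

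The mean CPM of a gene at 27 weeks was between 3.25% and 71.1% of its mean at 9 weeks, with a median of 32.8%. It was under 50% for 22 of the 28 and under 25% for 10. On the log2(CPM + 1) scale the difference, 27 weeks minus 9 weeks, had a median of -1.22 and ran from -2.86 to -0.35, while all 17060 genes had a median of 0.12. This scale understates the change of the low genes, and 6 of the 28 averaged under 1 CPM at 27 weeks. Set against each young group alone, the median difference of the 28 was -1.26 for 0.1%, -1.12 for 1% and -1.16 for 10%, beside 0.10, 0.039 and 0.22 for all genes. The shared dose of 1% gave the smallest of the 3 medians, and the 3 were not tested against each other.

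Which genes entered the list depended on all 3 young groups. Of the 17060 genes, 285 (1.67%) lay under all 5 libraries at 0.1%, 356 (2.09%) under those at 1% and 290 (1.70%) under those at 10%. Only 42 lay under all libraries of both 0.1% and 1%, 99 under both 0.1% and 10%, and 69 under both 1% and 10%, before the third group brought the number to 28.

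The gene of rank 1, Nfu_g_1_003310, had 0.607, 1.12, 1.84, 1.39 and 0.859 CPM at 27 weeks. It had 3.55, 34.4, 26.4, 5.00 and 4.53 CPM at 0.1%, 32.0, 62.7, 3.67, 11.4 and 22.6 CPM at 1%, and 14.54, 30.1, 24.54, 11.3 and 8.80 CPM at 10%. Its lowest young library, at 3.55 CPM, was 1.93 times its highest 27-week library, the widest separation of the 28, although the young libraries themselves differed widely. The mean at 27 weeks, 1.16 ± 0.476 CPM (SD, n = 5), was 5.89% of the mean over the 15 young libraries, 19.7 CPM. These levels rest on 16 to 43 reads per library at 27 weeks and on 78 to 1440 at 9 weeks. Per kilobase of recovered length its level was 0.827 RPKM (CPM per kilobase, recomputed with each library's own total) at 27 weeks and 14.0 RPKM at 9 weeks, where it held the 78.1 percentile of the genes kept.

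The gene of rank 2, Nfu_g_1_005403, was an abundant gene of the list. It had 132, 63.0, 161, 97.9 and 61.4 CPM at 27 weeks, a mean of 103 ± 43.5 CPM (SD, n = 5). The young libraries held 435, 699, 885, 278 and 831 CPM at 0.1%, 423, 933, 170, 447 and 328 CPM at 1%, and 456, 573, 653, 647 and 444 CPM at 10%. Its lowest young value, 170 CPM in replicate 3 at 1%, was close to its highest 27-week value, 161 CPM, and all other young libraries were at 278 CPM or more. Per kilobase it stood at 44.6 RPKM at 27 weeks and 237 RPKM at 9 weeks. Without it the summed level was 1232 ± 251 CPM at 27 weeks and 2780 ± 571 CPM over the 15 young libraries (SD, n = 5 and 15). The rule fixes this order for any sum of these genes.

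The most abundant gene of the list held rank 15. It had 375, 685, 862, 887 and 550 CPM at 27 weeks. Its young libraries ran from 889 CPM in replicate 4 at 1% to 1927 CPM in replicate 5 at 1%, so the ages were separated by the difference between 887.429 and 888.855 CPM. Per kilobase it reached 165 RPKM at 27 weeks and 376 RPKM at 9 weeks, the highest of the 28 at both ages.

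**Figure D2:**
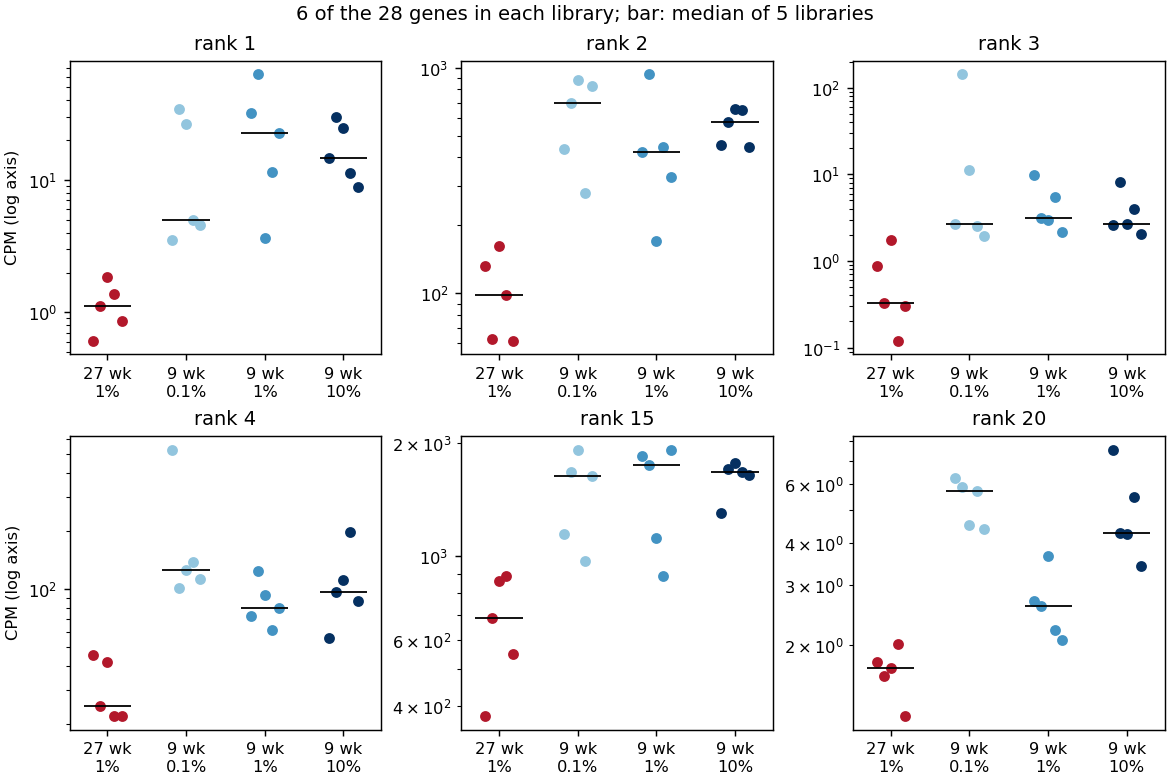
Level of 6 genes of the list (ranks 1, 2, 3, 4, 15 and 20) in every library, in CPM on a log axis, with the 27-week libraries left of the 9-week libraries. Within each gene all 27-week points lie under all 9-week points, with the gap widest for rank 1 (a ratio of 1.93) and almost closed for rank 15.

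The remaining genes were separated by margins of the same kind. The lowest 9-week CPM over the highest 27-week CPM had a median of 1.09 over the 28 and ran from 1.00004 to 1.93. It was over 1.5 for 3 of them, at ranks 1, 10 and 11. For 24 of the 28 the range among the 15 young libraries on the log2 scale exceeded the difference between the means of the ages. The gene just inside the rule, rank 28, had 2.8097 CPM in its highest 27-week library and 2.8098 CPM in its lowest young library. The nearest genes outside it had 0.0396 CPM against 0.0388 CPM and 0.822 CPM against 0.816 CPM for the same quantities. At the abundance threshold, rank 26 was inside with a mean of 1.04 CPM, and 2 genes without overlap were outside with 0.927 and 0.740 CPM.

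At 27 weeks, 6 genes averaged under 1 CPM (ranks 3, 7, 10, 11, 23 and 26), 14 lay between 1 and 10 CPM, and 8 exceeded 10 CPM (ranks 2, 4, 12, 13, 15, 18, 21 and 22). Counting error is large for the low ones: rank 11 had 8, 3, 8, 2 and 3 reads in the 27-week libraries, and rank 26 had 9, 8, 3, 6 and 5. In all, 6 genes had a 27-week library under 10 reads, and 0 had one without reads. The 8 more abundant genes differed by a log2 difference, 27 weeks minus 9 weeks, of -2.37 (rank 2) to -0.82 (rank 22).

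**Figure D3:**
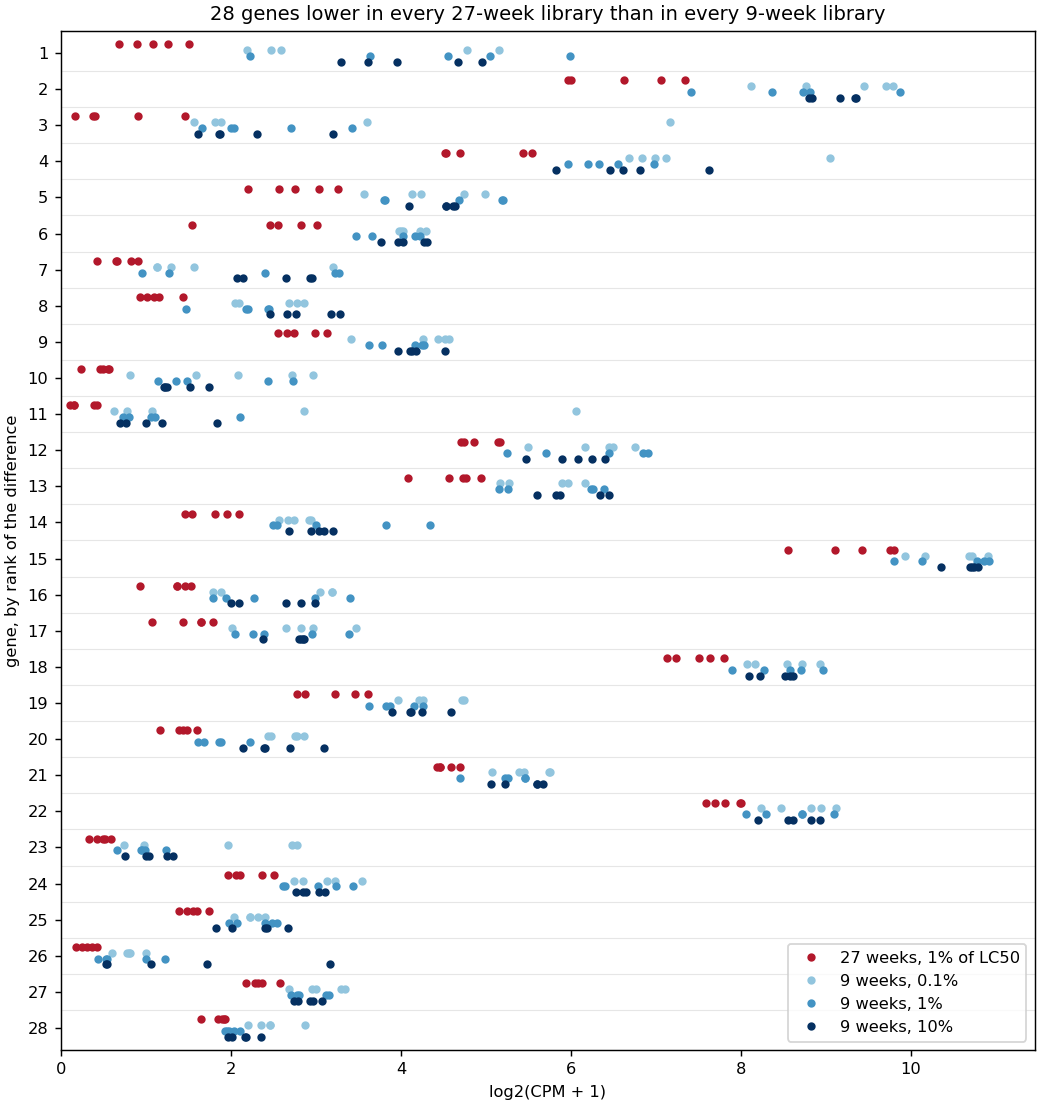
Level of each of the 28 genes (rows, rank 1 at the top) in each of the 20 libraries, as log2(CPM + 1) along the horizontal axis. Each point is 1 library, coloured by group, with the 27-week libraries uppermost in each row. Abundance differs between the genes by more than it does between the ages, from means of 0.189 CPM (rank 11) to 672 CPM (rank 15) at 27 weeks.

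Within each group, old or young, the libraries were less alike for these genes than for all genes kept, which were not matched for abundance. The median SD of log2(CPM + 1) over the 28 was 0.23 at 27 weeks, 0.43 at 0.1%, 0.41 at 1% and 0.27 at 10%, beside 0.21, 0.35, 0.28 and 0.24 over all genes kept. Replicates 3 and 4 at 1% were each under the median of the young libraries for 25 of the 28 genes, and replicate 4 at 0.1% and replicate 5 at 10% for 20. Replicate 2 at 1% was under it for 3, replicate 3 at 0.1% for 4 and replicate 2 at 0.1% for 5. Replicate 4 at 1% was the lowest young library for 10 genes, and at 27 weeks replicate 3 was the highest for 10 and replicate 4 for 9. Replicates 3 and 4 at 1% and replicate 4 at 0.1% also gave their 10 most abundant genes the smallest shares among the young libraries, 12.2%, 12.9% and 13.0%. The 27-week libraries had shares of 13.3% to 14.4%. A link between this share and the levels of the 28 genes was not tested.

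**Figure D4:**
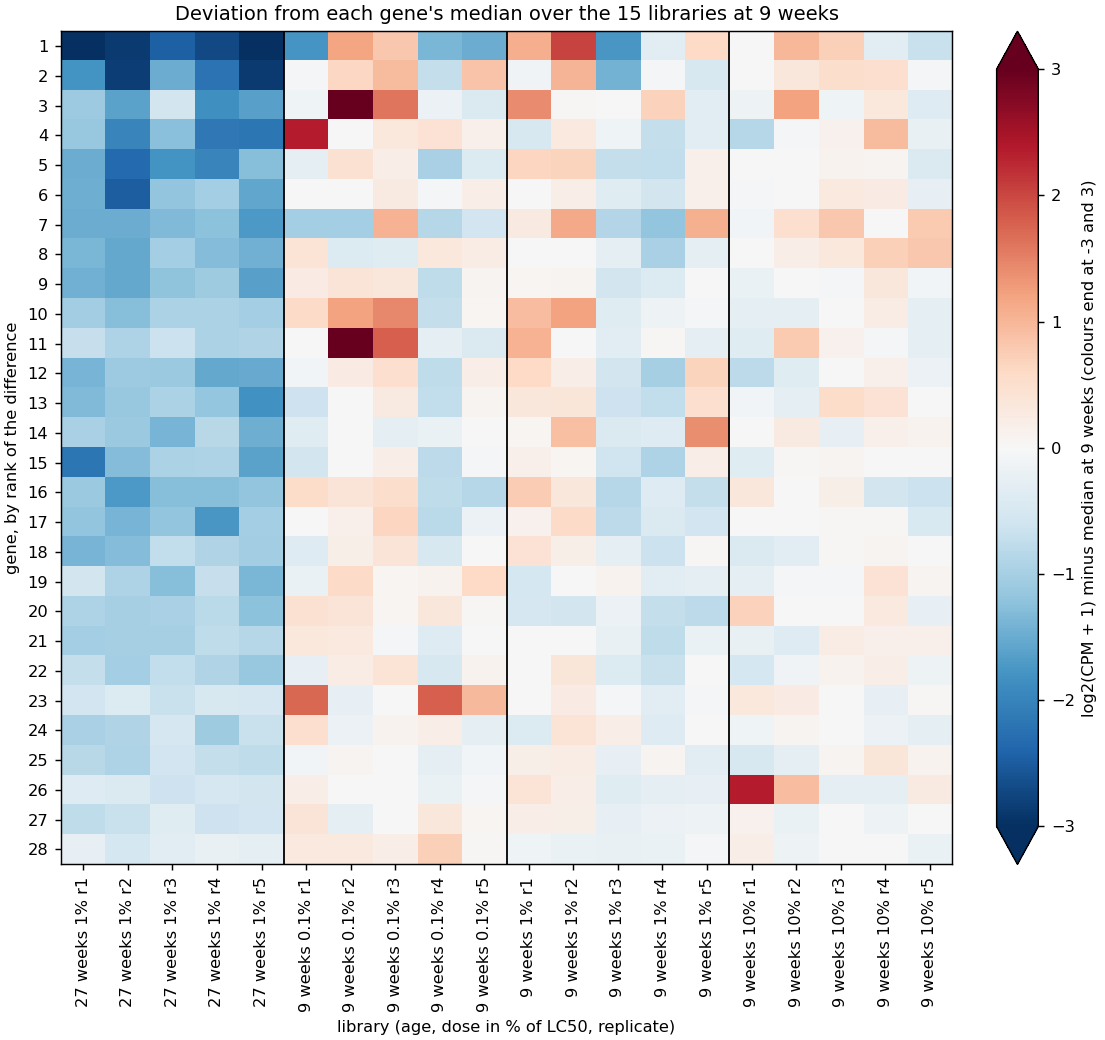
Deviation of each of the 28 genes from its median over the 15 libraries at 9 weeks, in log2(CPM + 1), by library, with the 27-week libraries first. Replicates 3 and 4 at 1% lie under 0 for 25 genes each, and replicate 2 at 1% for 3.

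The genes of ranks 3 and 11 shared a single high library. Rank 3 had 0.872, 0.324, 1.75, 0.119 and 0.299 CPM at 27 weeks. At 0.1% it had 2.68, 142, 11.2, 2.52 and 1.96 CPM, and in the other 10 young libraries between 2.06 and 9.71 CPM. Rank 11 had 0.303, 0.108, 0.342, 0.0791 and 0.112 CPM at 27 weeks, and 1.09, 65.5, 6.27, 0.709 and 0.541 CPM at 0.1%. Replicate 2 at 0.1% was thus the highest library for both, and replicate 3 at 0.1% the next. These were the only genes kept that were at least 5-fold higher in replicate 2 at 0.1% than in any other young library. Rank 11 passed the abundance filter only through its levels at 0.1%, so this is partly set by the filter. The ratio of rank 3 to rank 11 in CPM was 1.5 to 5.12 over the 27-week libraries and 1.78 to 4.77 over the 9-week libraries. Both have a short recovered length, 444 and 435 bp. Without an annotation it cannot be said whether they share reads.

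The rank of a gene does not use the order of the young groups, though the abundance filter uses their levels: without the 0.1% libraries ranks 11 and 23 would have averaged 0.937 and 0.821 CPM, and without the 10% libraries rank 26 would have averaged 0.566 CPM, each under the minimum of 1. Dose was tested over all genes with edgeR's quasi-likelihood test and Benjamini-Hochberg adjustment at 0.05. All libraries at 0.1% come from a table of their own, so dose and table cannot be told apart wherever they enter. Between 1% and 0.1%, 18.47% of the 18808 genes tested were called, 8.43% higher and 10.04% lower at 1%. Of the 28 genes 5 were called, 17.9%, a share near that background, and all 5 were lower at 1%. Ranks 11 and 23 are among these 5 and entered the list only through their levels at 0.1%, so their direction is partly set by the choice of genes and the count is a description. The fitted log2 change was negative for 23 of the 28, with a median of -0.28, beside -0.039 over all genes tested, of which 46.3% had a positive change.

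Between 10% and 1%, 9.11% of the 18473 genes tested were called, 4.22% higher and 4.88% lower at 10%. Of the 28 genes 2 were called, both higher at 10%, which is 7.14% of the list. The fitted log2 change was positive for 23 of the 28, with a median of 0.28, beside 0.036 over all genes, of which 53.8% were positive. Rank 26, not called by edgeR, had the largest of these changes, 1.98. Its libraries had 7.98, 2.30, 0.454, 0.448 and 1.09 CPM at 10%, against 1.33, 1.00, 0.351, 0.444 and 0.459 CPM at 1%. Only replicates 1 and 2 at 10% lay above the range at 1%. DESeq2 called the gene (adjusted p = 0.0397). Rank 26 passed the abundance filter only through its levels at 10%, so its direction is partly set by the choice of genes. This comparison and that between 1% and 0.1% share the 1% libraries, among them replicates 3 and 4, which were low for most of the 28 genes. Without replicate 4 at 1% the median of the 28 between 10% and 1% was 0.14 with 18 positive, and without replicate 3 it was 0.13 with 20 positive. Without the same replicates the medians between 1% and 0.1% were -0.18 and -0.19, each with 19 of 28 negative. Leaving out 1 library at 0.1% moved that median as far as -0.095 with 18 negative (without replicate 3) and -0.42 with 25 negative (without replicate 4).

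Between 10% and 0.1%, 0 of 18808 genes (0%) were called by edgeR, and so 0 of the 28. At an unadjusted p under 0.05 there were 3855 of the 18808 genes and 5 of the 28. DESeq2 called 912 genes there, 4.99% of those with an adjusted p, and 2 of the 28, ranks 3 and 11, both lower at 10%. Both have the high library described above, replicate 2 at 0.1%. Ranks 11 and 23 passed the abundance filter only through their levels at 0.1%, and rank 26 only through those at 10%. The directions of these genes are thus partly set by the choice of genes. The median change of the 28 was -0.027 on the log2 scale, with 12 positive and 16 negative, and its sign was not stable: without replicate 3 at 0.1% it was 0.12 with 19 positive, and without replicate 4 at 0.1% it was -0.14 with 9 positive. Without replicates 2 and 5 at 0.1%, each left out alone, it was 0.033 and 0.018.

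**Figure D5:**
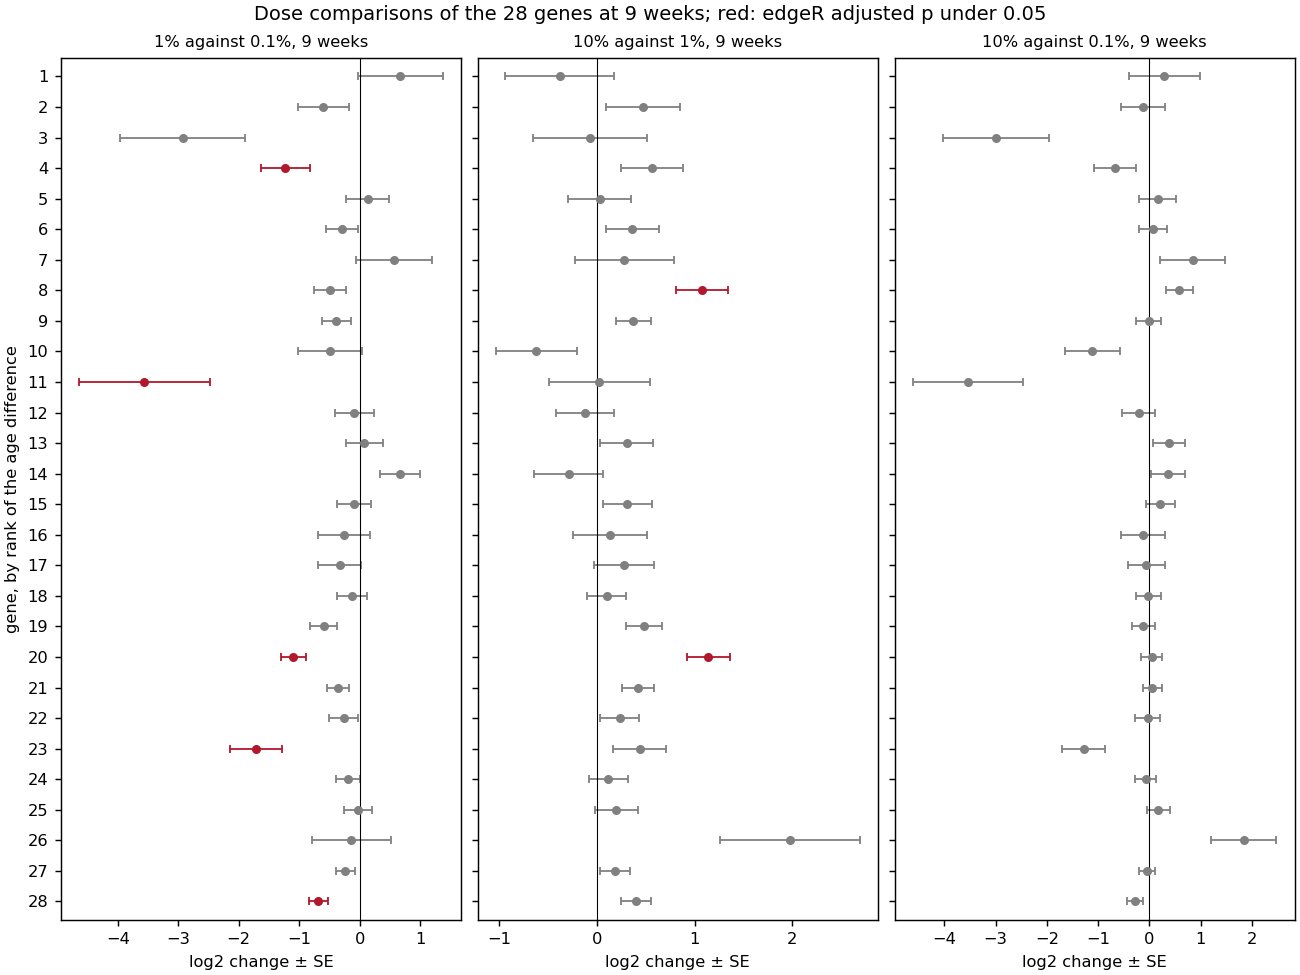
Fitted log2 change of each of the 28 genes with its SE in the comparisons of dose at 9 weeks. Red points passed an adjusted p under 0.05 in edgeR's quasi-likelihood test: 5 between 1% and 0.1%, all lower at 1%, and 2 between 10% and 1%, both higher at 10%. Ranks 11 and 23, among the 5, passed the abundance filter only through their levels at 0.1%, so their direction is partly set by the choice of genes.

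The gene of rank 20, Nfu_g_1_015051, was called in both steps. It had 1.78, 1.62, 1.71, 2.02 and 1.23 CPM at 27 weeks. At 9 weeks it had 6.23, 5.87, 4.52, 5.71 and 4.41 CPM with 0.1%, 2.70, 2.61, 3.67, 2.22 and 2.07 CPM with 1%, and 7.56, 4.27, 4.25, 5.48 and 3.41 CPM with 10%. All 5 libraries at 1% were under all 5 at 0.1%, and 4 of them were under all 5 at 10%. The means were 1.67 ± 0.287 CPM at 27 weeks, and 5.35 ± 0.828, 2.65 ± 0.626 and 5.00 ± 1.61 CPM at 9 weeks with 0.1%, 1% and 10% (SD, n = 5 each). By edgeR's quasi-likelihood test it was lower at 1% than at 0.1% by a log2 change of -1.10 (SE 0.21, adjusted p = 0.00185) and higher at 10% than at 1% by 1.14 (SE 0.22, adjusted p = 0.0102). Both calls held in all 20 alternatives tried for each. Between 10% and 0.1% its change was 0.046 (SE 0.20, adjusted p = 0.925). Because the 1% libraries were low, its log2(CPM + 1) difference, 27 weeks minus 9 weeks, was -0.44 at the shared dose, against -1.25 for 0.1% and -1.13 for 10%.

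The other calls were less settled. Rank 4 was lower at 1% than at 0.1% by a log2 change of -1.23 (SE 0.41, adjusted p = 0.0409, edgeR). Its libraries had 72.7, 124, 93.2, 61.6 and 79.3 CPM at 1%, against 527, 101, 126, 138 and 113 CPM at 0.1%, where replicate 1 stood alone. Without that replicate the change was -0.59 with an adjusted p of 0.229 by edgeR, and the call was lost in 10 of 20 alternatives. Rank 11 was lower at 1% by -3.56 (SE 1.08, adjusted p = 0.0284, edgeR), with its high library at 0.1% described above. Without replicate 2 at 0.1% the change was -0.85 and the adjusted p 0.457 by edgeR, and the call was lost in 9 of 19 alternatives. This gene passed the abundance filter only through its levels at 0.1%, so its direction is partly set by the choice of genes.

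Rank 23 had 0.984, 1.35, 0.937, 0.577 and 0.919 CPM at 1%, against 5.55, 0.675, 0.964, 5.87 and 2.91 CPM at 0.1%. Its groups overlapped, and the high values were those of replicates 1 and 4 at 0.1%, the libraries that stood apart on the first principal component. The change was -1.72 (SE 0.43, adjusted p = 0.0100, edgeR), and without both replicates -0.89 with an adjusted p of 0.169. The call was lost in 4 of 19 alternatives. Rank 23 also passed the abundance filter only through its levels at 0.1%, so its direction is partly set by the choice of genes. Rank 28 had 3.08, 2.87, 2.81, 2.93 and 3.31 CPM at 1%, all under 4.505, 4.47, 4.12, 6.30 and 3.58 CPM at 0.1%, a change of -0.68 (SE 0.15, adjusted p = 0.00544, edgeR). The call was kept in 18 of 20 alternatives, among them each library left out in turn. It was lost with limma on deposited RPKM (adjusted p = 0.0764 and 0.0612 at pseudocounts of 1 and 0.1). In these RPKM neighbouring genes were divided by totals of different libraries, as described under processing.

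Rank 8 was higher at 10% than at 1% by a log2 change of 1.08 (SE 0.27, adjusted p = 0.0253, edgeR). It had 4.49, 5.32, 5.78, 8.03 and 8.69 CPM at 10%, all above 4.41, 4.44, 3.51, 1.77 and 3.58 CPM at 1%. The adjusted p became 0.0533 without replicate 4 at 1% and 0.0583 without replicate 4 at 10%, by edgeR. It was 0.0711 by edgeR with only the 10 libraries of both groups, and 0.177 and 0.138 by limma at pseudocounts of 1 and 0.1. The call was lost in these 5 of 20 alternatives. Rank 1 did not pass in either step: its change was 0.68 between 1% and 0.1% (SE 0.70, adjusted p = 0.558, edgeR) and -0.38 between 10% and 1% (SE 0.56, adjusted p = 0.711).

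The order of the young groups was uneven over the list. In mean log2(CPM + 1) the group at 0.1% was the highest of the 3 for 18 genes (64.3%) and the groups at 1% and 10% for 5 each (17.9%). Over all genes kept the shares were 37.9%, 47.8% and 14.3%. Ranks 11 and 23 were highest at 0.1% and rank 26 at 10%, the groups through which they passed the abundance filter. The order is thus partly set by the choice of genes. The lowest group was 0.1% for 7 genes, 1% for 14 and 10% for 7, against 27.4%, 23.7% and 48.9% of all genes kept. For most genes the order rests on differences that did not pass the tests above.

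Gene lengths, recovered from the counts and the deposited RPKM, were 435 to 8399 bp over the 28, with a median of 2578 bp, beside 2795 bp over all genes kept (quartiles 1416 and 4812 bp). Whether these lengths span whole transcripts is not known. Of the 28, 14 were shorter than that median. Per kilobase, their levels at 9 weeks lay between 0.249 and 376 RPKM with a median of 6.47, at percentiles from 1.04 to 98.9 of the genes kept and a median percentile of 55.6. No member had an identifier number within 10 of another, the closest pair being 12 apart; such numbers are not coordinates.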

How the data were processed

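Per the labels' protocols, the 20 skin libraries were prepared with a TruSeq kit. The submitters' processing notes name featureCounts 1.4.6-p4, STAR 2.4.1d and CASAVA 1.8.2, without their settings. Build, annotation and strand setting: not given in the sources used here. Counts as deposited are unnormalized whole reads, in 1 table for 1% and 10% and another for 0.1%. Columns were matched by title; 10 count columns and 9 RPKM columns match no sample described here and were not used. The authors also deposited RPKM values. Their ratio to the counts showed that the totals they were divided by recur down the genes with a period of 35 rows. Neighbouring genes were thus divided by totals of different libraries, and most counts by a total other than their own library's. The recovered totals matched those of the labelled libraries (SD 5.29e-06 on the log2 scale, next best offset 0.12). Lengths followed from them, and 89.6% of the 9074 lengths under 3000 bp came within 0.1 of a whole number. Of these near-whole lengths 66.3% were multiples of 3, the step of coding sequence, so many may not be whole transcripts. RPKM given here as recomputed use each library's own total. The deposited values served only in alternatives.

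None of the identifiers (0) matched the gene table for assembly NfurGRZ-RIMD1, so the gene lists prepared by symbol could not be tested. Named are the genes of ranks 1 and 2 and, in each step of dose, the gene with the largest increase among those that passed the test (whatever its p where no increase passed); the others are given by rank. The genes and lists were chosen with earlier results of these data known. CPM use column totals. Tests were two-sided in R 4.3.3 with edgeR 4.0.16 (TMM, filterByExpr, glmQLFit, glmQLFTest): the 15 libraries of the first table for 10% against 1%, all 20 for comparisons with 0.1%. The SE of a change is its size over the root of its F value. DESeq2 1.42.0, limma 3.58.1 on log2(RPKM + 1) and log2(RPKM + 0.1), other scalings, filters and sets of libraries were alternatives. Replicate numbers only name libraries. Scripts were tested on simulated data.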

Additional observations from a re-analysis of the deposited data

Results flagged for a closer look

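Within the 4 groups of 5 libraries, 116 sets of 5 values on a log2 scale (log2(CPM + 1) of each gene, and log2 of their summed CPM) were examined. In 10 of them a library's distance from the nearest other exceeded Dixon's 95% critical value of 0.71 of the range on that scale; chance gives about 1 in 20, or 5.8. The values are given in CPM, where the same distances take other shares of the range. At 27 weeks both cases were replicate 2, on the low side: rank 16 with 0.901 CPM (others 1.58 to 1.90) and rank 28 with 2.13 CPM (others 2.60 to 2.81). At 9 weeks and 0.1%, rank 4 had 527 CPM in replicate 1 (others 101 to 138), rank 7 had 8.16 CPM in replicate 3 (others 1.18 to 1.96) and rank 9 had 9.61 CPM in replicate 4 (others 18.2 to 22.7). At 9 weeks and 1%, rank 8 had 1.77 CPM in replicate 4 (others 3.51 to 4.44) and rank 11 had 3.30 CPM in replicate 1 (others 0.663 to 1.15). At 9 weeks and 10%, rank 5 had 16.1 CPM (others 22.1 to 23.9) and rank 17 had 4.19 CPM (others 5.96 to 6.28), both in replicate 5, and rank 15 had 1308 CPM in replicate 1 (others 1652 to 1770).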

How the results depend on the processing

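The 28 genes had a lower mean at 27 weeks under each scaling tried. Their median log2 difference, 27 weeks minus 9 weeks, was -1.32 with TMM, -1.33 with RLE, -1.30 with totals without the 18 most abundant genes (an alternative chosen after seeing the data) and -0.86 with deposited RPKM, beside 0.0039, -0.0072, 0.031 and 0.17 for all genes. In deposited RPKM most counts were divided by a total other than their own library's, so they are not a scaling by library. Under the first 3 of these scalings 24 stayed free of overlap; ranks 15, 21, 26 and 28 did not in at least 1. The number of genes free of overlap was 39 with TMM, 38 with RLE and 34 with totals without the most abundant genes. These held 25, 26 and 25 of the 28. The number was 15 with deposited RPKM (13 of the 28), 17 with a mean CPM of at least 5 (17 of the 28), and 46 without replicates 1 and 4 at 0.1%. Leaving out 1 library gave 27 to 62 genes, with 27 or 28 of the list among them: 49, 62 and 44 without replicates 1, 3 and 4 at 27 weeks, and 44 without replicate 4 at 0.1%. Leaving out libraries can only loosen the condition on overlap. A gene of the list can then be lost only through its mean CPM, so finding the list again says little.

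Between 10% and 1%, 1 of the 28 was called with only those 10 libraries, 1 with limma at either pseudocount, and 1 to 2 on leaving out 1 library (1 without replicate 4 of either dose). DESeq2 called 3, all higher at 10%. Between 1% and 0.1%, 3 were called with at least 50 reads in 5 libraries, a filter that left 25 of the 28 to test. Ranks 4, 20 and 28 kept their calls there, and ranks 11 and 23 were not tested. In the same comparison 2 were called with only those 10 libraries, 3 with the 15 young libraries, 1 with limma at either pseudocount, and 3 to 7 on leaving out 1 library (3 without replicate 3, 4 or 5 at 1%). With DESeq2 there were 7, all lower at 1%. Between 10% and 0.1%, DESeq2 called 2, and leaving out 1 library gave 0. Why the other settings moved these counts was not tested. The 7 calls of single genes kept their sign in each alternative that tested the gene. Over all genes, calls between 10% and 1% numbered 1682 (780 higher), against 468 with only those 10 libraries, 641 with the 15 young, 2565 with DESeq2, 871 (181 higher) and 711 with limma, and 642 to 2421 on leaving out 1 library. Between 1% and 0.1% they numbered 3473 (1585 higher), against 1159, 2275, 4286, 1564 (995 higher) and 1436, and 2300 to 3905. No paired analysis was possible because replicate numbers only name libraries. The low genes at 27 weeks rest on few reads, and depth limits them most.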

Other observations

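The opposite list, genes higher in every 27-week library, held 134 of the 17060 genes, and 9 further genes were lower without overlap at a mean under 1 CPM. A single library kept other genes off the list of 28: replicate 3 at 27 weeks alone kept out 34 genes, replicate 1 at 27 weeks 21, replicate 4 at 0.1% 16, replicate 4 at 27 weeks 14 and replicate 4 at 1% 12, while no other library kept out more than 10.

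Some genes were high in a single young library. Of the 17060 genes kept, 162 were at least 5-fold higher in replicate 1 at 10% than in every other young library. For replicate 2 at 10% there were 25. With so few of all genes in these sets, finding 0 of the 28 in either says little about the list. Replicate 2 at 0.1% had 2 such genes, ranks 3 and 11, both on the list. Rank 11 passed the abundance filter only through its levels at 0.1%, so this count is partly set by the filter. At 0.1%, 6 of the 28 (21.4%) were higher and 7 (25%) lower in both replicates 1 and 4 than in each of the other 3 libraries, beside 45.4% and 8.18% of all genes kept.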
